A study of Mus musculus with 6 samples.

Results

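The neurexins and neuroligins are adhesion proteins that span the synapse. Neurexins sit mainly on the presynaptic membrane, where their genes give many isoforms from more than one start site and by alternative splicing. Neuroligins sit on the postsynaptic membrane and bind the neurexins across the cleft. *Nlgn1* is best known from excitatory synapses, *Nlgn2* from inhibitory synapses and *Nlgn3* from both kinds. AGO2 is the Argonaute protein that carries a microRNA (miRNA) to RNA with a matching stretch, most often to the miRNA's seed, nucleotides 2 to 8, and MOV10 is an RNA helicase that acts on such RNAs.

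Described here are AGO2 clusters and miRNA target clusters in 5 genes, *Nrxn2*, *Nrxn3*, *Nlgn1*, *Nlgn2* and *Nlgn3*, of the 45274 mouse RefSeq genes with a strand. They were measured by chimeric eCLIP, in which AGO2 is immunoprecipitated (IP) after UV crosslinking and the miRNA is ligated to the RNA beside it, so that some reads name a miRNA and its target. The samples were whole brains of C57Bl/6J pups at postnatal day 0 (P0), 1 WT and 2 *Mov10* Deletion, each with a size-matched input. *Mov10* Deletion pups carry a floxed *Mov10* allele deleted by *Emx1*-Cre, a Cre active in neocortical and hippocampal excitatory neurons, together with a heterozygous *Mov10* mutant allele. In a whole brain, cells that Cre does not reach and fewer cells of one type cannot be told apart from a change in binding per cell. With 1 WT library no test between the genotypes was possible, and no p-value for the genotypes is given.

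A cluster was taken as part of a gene when it overlapped the gene body in mm10 on the same strand. It was called enriched when its deposited log2 IP over input was at least 3 and its deposited −log10 p was at least 3. The files held 359172 AGO2 clusters in the WT library and 616014 and 616005 in *Mov10* Deletion replicates 1 and 2. The libraries were not equal in the IP reads that a call needed, and their total depth is unknown. Over a single input read, the call needed at least 16 (WT), 9 (*Mov10* Deletion replicate 1) and 8 (replicate 2) IP reads, as inferred from the deposited values. The coordinates of the *Mov10* Deletion clusters were nearly all identical in both libraries, so their number and position are not independent between them. Neuronal markers had clusters in every library (6 of 6 genes), as did markers of radial glia and astrocytes (4 of 4), oligodendrocyte lineage (4 of 4), endothelium (3 of 3) and blood (2 of 2), with microglia at 2, 3 and 3 of 3 and tissues outside the brain at 1 of 4 in each library. *Mov10* itself had 11 clusters in WT and 9 in each *Mov10* Deletion library, with highest log2 values of 4.0, 2.80 and 2.84. Those clusters were counted over the whole gene body and not over the deleted exons alone.

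The 5 gene bodies differ widely in length. In mm10 they lie on chromosome 19 at chr19:6418756-6533217 on the plus strand (*Nrxn2*, 114462 nt), on chromosome 12 at chr12:88722701-90334935 on the plus strand (*Nrxn3*, 1612235 nt), on chromosome 3 at chr3:25421808-26332866 on the minus strand (*Nlgn1*, 911059 nt), on chromosome 11 at chr11:69823123-69837784 on the minus strand (*Nlgn2*, 14662 nt) and on chromosome X at chrX:101299179-101321350 on the plus strand (*Nlgn3*, 22172 nt). Exons, introns and untranslated regions were not separated, because positions below are in mm10 and no mm10 exon annotation was used here. No other gene on the same strand overlapped any of them.

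Of 70 miRNAs named in these genes, 60 had a mature sequence in RefSeq (GRCm38.p6). The most frequent miRNA of all, miR-124-3p, and the miR-466 miRNAs were among those without one. The most frequent of the 60 and some named at the places described below are printed 5′ to 3′. The seed is in capitals, since it is the part that pairs with the target. The 4 let-7 miRNAs shown share 1 seed, and so do miR-92a-3p and miR-92b-3p, so that these names differ only outside the seed.
miR-9-5p: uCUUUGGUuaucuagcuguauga
let-7b-5p: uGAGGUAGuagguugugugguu
let-7c-5p: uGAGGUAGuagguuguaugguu
let-7f-5p: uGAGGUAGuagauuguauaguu
let-7g-5p: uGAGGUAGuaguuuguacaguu
miR-181a-5p: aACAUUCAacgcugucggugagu
miR-125b-5p: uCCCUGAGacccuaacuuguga
miR-128-3p: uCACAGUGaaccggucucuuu
miR-16-5p: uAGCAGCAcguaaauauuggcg
miR-92a-3p: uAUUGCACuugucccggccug
miR-92b-3p: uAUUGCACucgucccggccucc
miR-19b-3p: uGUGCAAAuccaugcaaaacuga

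The first question was how much AGO2 signal each gene held for its length. All 5 genes carried AGO2 clusters in all 3 libraries, at 6.04 to 10.2 clusters per 10 kb in WT and 9.92 to 18.4 per 10 kb in the *Mov10* Deletion libraries. Enriched clusters were few. The WT library held 37 among 1875 clusters of the 5 genes (1.97%, exact 95% interval 1.39 to 2.71), where 2.09% of all clusters in genes were enriched. *Mov10* Deletion replicate 1 held 106 among 3221 (3.29%, 2.7 to 3.97) beside 5.16% in all genes, and replicate 2 held 80 among 3221 (2.48%, 1.97 to 3.08) beside 3.09%. In genes longer than 100 kb the shares were 1.45%, 4.12% and 2.45%. Thus the 5 genes pooled were near or below the background in each library, but *Nrxn3* held most of the clusters pooled. The share in *Nrxn2* was 9.0% in WT (4.2 to 16.4) and 10.6% in replicate 1 (6.31 to 16.5), above that of all genes. In replicate 2 it was 3.75%. *Nlgn2* had 0%, 22.2% and 7.41%, and *Nlgn3* had 6.67%, 4.55% and 22.7%, from few clusters. *Nrxn3* was below all genes in each library (0.753%, 2.35% and 1.86%), and *Nlgn1* had 3.27%, 3.52% and 3.0%. The intervals cover counting error only, and adjoining clusters are not independent of each other. Counting only clusters with at least 16 inferred IP reads gave 37, 60 and 32. The WT count could not change, because 16 is the fewest IP reads with which a WT cluster is called. This minimum does not make the libraries equal, since 1 IP read over 1 input read is worth a different fold in each.

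The neurexins differed from each other in density. *Nrxn2* had 100 clusters in WT and 160 in each *Mov10* Deletion library, of which 9, 17 and 6 were enriched, or 7.86, 14.9 and 5.24 per 100 kb. *Nrxn3*, which is the longest of the genes, had 1195, 2045 and 2045 clusters, of which 9, 48 and 38 were enriched, or 0.558, 2.98 and 2.36 per 100 kb. Per length, *Nrxn2* was above *Nrxn3* in all 3 libraries. The median log2 over all clusters was 1.23, 1.12 and 0.55 in *Nrxn2* and 0.17, 0.44 and 0.25 in *Nrxn3*.

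Among the neuroligins, *Nlgn1* held 18, 34 and 29 enriched clusters among 550, 967 and 967, in the order WT, replicate 1 and replicate 2, or 1.98, 3.73 and 3.18 per 100 kb. *Nlgn2* held 0, 6 and 2 among 15, 27 and 27, or 0, 40.9 and 13.6 per 100 kb. With 0 of 15 in WT a share of up to 20% is allowed, and the highest WT value in *Nlgn2* was a log2 of 2.84. *Nlgn3* held 1, 1 and 5 among 15, 22 and 22, or 4.51, 4.51 and 22.6 per 100 kb. The *Mov10* Deletion replicates thus differed from each other in both short genes, in opposite directions. In WT, 4 of the 5 genes had an enriched cluster, where 18.7% of all genes with a cluster and 37.7% of those over 100 kb had one. All 5 had one in *Mov10* Deletion replicate 1 (40.9% and 74.9%) and in replicate 2 (32.1% and 64.4%), and so all 5 in both, beside 24.1% of genes and 58.1% of genes over 100 kb.

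**Figure D1:**
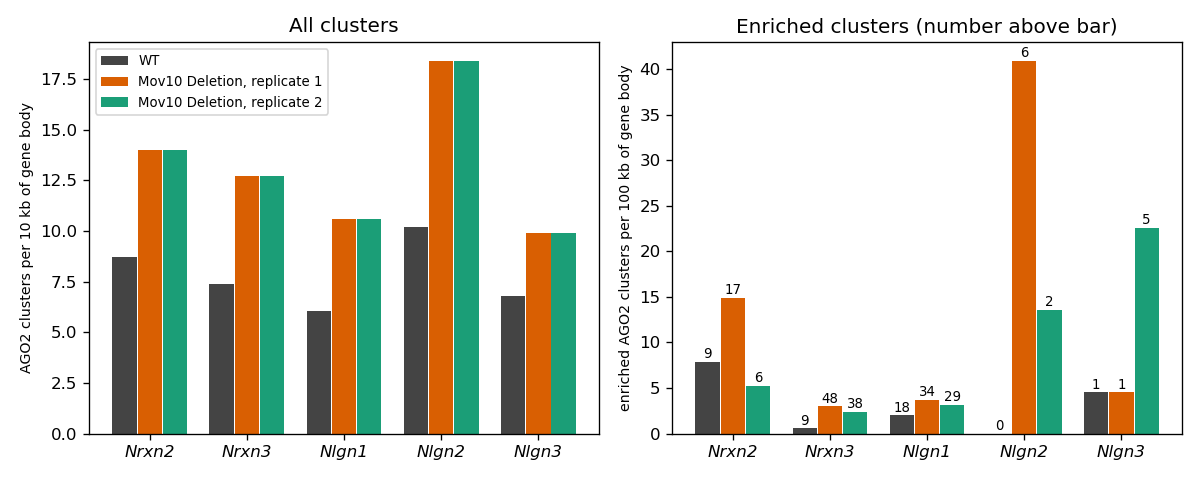
AGO2 clusters per 10 kb (left) and enriched clusters per 100 kb (right) of gene body for each gene, with a bar for each library and the number of enriched clusters above the right-hand bars. The short genes *Nlgn2* and *Nlgn3* reach the highest enriched density from 6 and 5 clusters, each in a different *Mov10* Deletion library.

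The same gene being enriched in both *Mov10* Deletion libraries did not mean the same cluster. Of the 160 clusters enriched in at least 1 of them and listed in both with identical coordinates, 26 were enriched in both (16.2%, beside 9.30% of such clusters in all genes and 6.88% in genes over 100 kb), and 42 had a log2 below 0 in the other library. Of the 26, 9 are the narrow *Nrxn3* clusters described below, which adjoin each other within 2 stretches. Those of *Nlgn1* fall into 3 places, where most of them adjoin. The *Nrxn3* clusters chr12:89001670-89001787 and chr12:89001788-89001896 also adjoin. The 26 are thus not separate observations. How far the share of 16.2% depends on the splitting of signal into clusters was not tested. *Nlgn1* accounted for 12 of the 26, *Nrxn3* for 13 and *Nlgn2* for 1, while *Nrxn2* and *Nlgn3* had none. The number of genes enriched in both libraries is therefore 5 by gene and 3 by cluster.

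**Figure D2:**
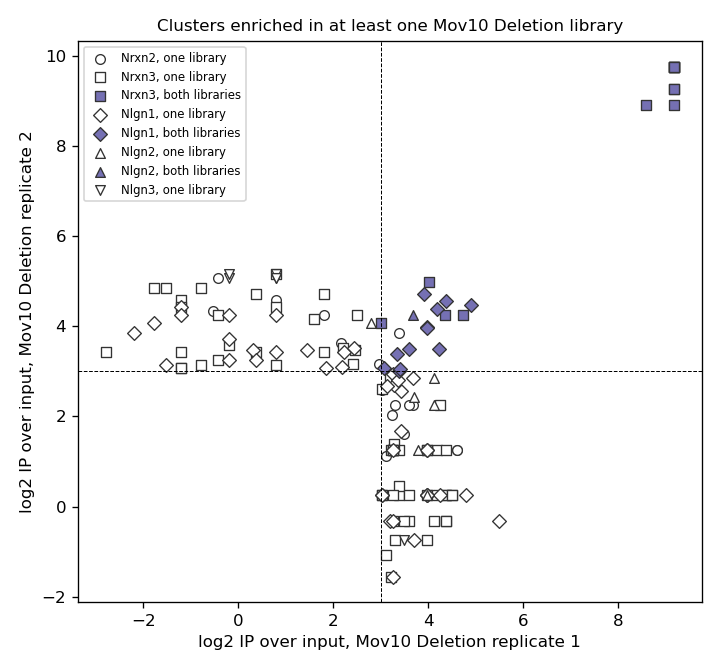
Log2 IP over input in *Mov10* Deletion replicate 1 (x axis) and replicate 2 (y axis) of the 160 clusters enriched in at least 1 of these libraries, with a marker shape for each gene and filled markers for the 26 enriched in both. Of the open markers, 42 lie below 0 in the other library, and a group of *Nrxn3* clusters stands at 8.59 to 9.75.

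To see where AGO2 lay along the genes, enriched clusters of all libraries at most 2000 nt apart were joined into regions. *Nlgn1* had 24 such regions, of which 3 were enriched in all 3 libraries, and these held 58.0% of its enriched clusters. *Nrxn3* had 52 regions, of which 2 were enriched in all 3 libraries and held 9.47%, and 43 were enriched in 1 library. *Nrxn2* had 13 regions with 1 in all 3 libraries, which held 34.4%. *Nlgn2* had 1 region and *Nlgn3* had 2, none of them enriched in all 3 libraries.

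The region of *Nlgn1* with the most enriched clusters was inside the gene, far from either end. It lies at chr3:25845663-25848618, 423.9 kb before the gene's end, and held 9 enriched clusters in the WT library, and the *Mov10* Deletion replicates held 12 and 7. At its summit the WT cluster chr3:25847386-25847477 had a log2 of 4.57 from 449 IP reads over 16 input reads. The *Mov10* Deletion cluster at the same place, chr3:25847384-25847478, had a log2 of 4.39 in replicate 1 and 4.56 in replicate 2, so that the 3 libraries were close to each other there. Higher log2 values from fewer reads were found elsewhere in the gene, up to 5.50 at chr3:25661480-25661511 in replicate 1 (26 IP reads over 1). Few target clusters were listed in the region at 423.9 kb. WT listed miR-466f-3p at a score of 3.04 and miR-204-5p at 3.0, replicate 1 listed miR-466f-3p in 3 clusters at 3.19 to 5.97 and let-7c-5p at 3.23, and replicate 2 listed none.

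The other 2 shared regions of *Nlgn1* differed in their miRNAs. At chr3:25868013-25868316, 446.2 kb before the end, the highest log2 was 3.48 in WT, with 4.91 and 4.48 in the *Mov10* Deletion replicates. The target cluster there named miR-124-3p, a neuron-enriched miRNA, with scores of 83.3, 84.3 and 48.9, the highest of any target cluster in the 5 genes in each library. At chr3:26045656-26046431, 623.8 kb before the end, the highest log2 was 3.68, 4.23 and 4.71, and the 1 target cluster was of miR-124-3p with a score of 4.0 in *Mov10* Deletion replicate 1. A further *Nlgn1* target cluster of miR-124-3p, at chr3:25880540-25880686, had scores of 39.3, 34.9 and 14.0 and lay on an enriched cluster in WT (log2 3.76) and replicate 2 (3.52) but not in replicate 1 (2.43).

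In *Nrxn3*, both regions enriched in all 3 libraries carried miR-124-3p. At chr12:89001101-89001901, 1333 kb before the gene's end, the highest log2 was 4.25 in WT, with 4.74 and 4.98 in the *Mov10* Deletion replicates, and miR-124-3p had scores of 48.1, 29.4 and 8.39. At chr12:89089495-89089675, 1245 kb before the end, the highest log2 was 3.73, 4.36 and 4.25, and miR-124-3p had scores of 66.2, 35.4 and 33.0. At both places the score was highest in WT and lowest in replicate 2, while the log2 was lowest in WT. The cluster at chr12:89550113-89550239 was enriched in both *Mov10* Deletion libraries (3.01 and 4.06) and had a log2 of 1.78 in WT, and miR-466i-5p was named there in all 3 libraries with scores of 3.78, 5.0 and 7.89.

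The highest log2 values of all, however, belonged to 9 very narrow clusters of *Nrxn3*. They were 2 to 5 nt wide and filled 2 stretches, chr12:89377126-89377141 and chr12:89381308-89381319. In *Mov10* Deletion replicate 1 their log2 was 8.59 to 9.18, and in replicate 2 it was 8.90 to 9.75. Up to 666 and 1809 IP reads were inferred for them, far above the medians of 14.5 and 14.0 for the enriched clusters of this gene. The 1809 rests on the ratio alone, because the deposited −log10 p is at its limit there, and is the smallest number that fits. The WT library had no cluster at either stretch, and no target cluster lay there in any library. Since neighbouring clusters had equal or nearly equal inferred reads, they are not separate observations. Leaving out clusters under 10 nt gave *Nrxn3* 39 and 29 enriched clusters in replicates 1 and 2 and highest log2 values of 4.74 and 5.16, close to the highest values of the other genes.

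Some of the 9 enriched WT clusters of *Nrxn3* lay within 5 kb of internal start sites. How many would lie there by position alone was not estimated. The cluster chr12:88955302-88955414 had a log2 of 4.08 in WT and lies within 5 kb of the start site at 88953390, where the highest values of the *Mov10* Deletion libraries were 2.67 and 2.48. The cluster chr12:89813502-89813556 had a log2 of 3.76 and lies within 5 kb of the start site at 89812483, where the highest values were 3.61, which was not enriched, and 4.58, which was. Each of these WT clusters rested on 1 input read (20 and 16 IP reads). Within 5 kb of the most upstream start site listed, at 88794504, no library had an enriched cluster. The same held at each start site listed for *Nlgn1* and *Nlgn2*.

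*Nrxn2* had its shared region near the gene's end. At chr19:6521312-6523782, 9.435 kb before the end, WT had 6 enriched clusters and the *Mov10* Deletion libraries had 4 and 1, with highest log2 values of 3.93, 3.67 and 3.62. No miRNA was named in that region in any library. At chr19:6499783-6499945, 33.27 kb before the end, the log2 was 3.64 in WT, 2.97 in replicate 1 and 3.16 in replicate 2, so that replicate 1 fell just below the threshold. Here miR-124-3p was named with a score of 32.9 in WT and 17.2 in replicate 1 and was not listed in replicate 2, and miR-125b-5p was named in WT with 5.84. A cluster 78.66 kb before the end with a log2 of 3.84 in WT (17 IP reads over 1 input read) carried miR-9-5p at a score of 3.0, and the log2 there was 3.30 in replicate 1, with miR-9-5p at 3.75, and up to 2.25 in replicate 2.

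No enriched AGO2 cluster of *Nlgn3* recurred as the same cluster between libraries. Its WT enriched cluster, chrX:101310107-101310219, had a log2 of 3.05 from 59 IP reads over 6 input reads, and neither *Mov10* Deletion library was enriched there. The 5 enriched clusters of replicate 2 adjoin each other at chrX:101302100-101302208, with a log2 of 5.06 or 5.16 from 14 or 15 IP reads over a single input read. The enriched cluster of replicate 1 (log2 3.50) had 13 IP reads and lies at chrX:101302791-101302874. With at least 16 IP reads *Nlgn3* had 1 enriched cluster in WT and 0 in both *Mov10* Deletion libraries. Every enriched WT cluster meets that minimum by the call itself, so this is no comparison of the genotypes. The target cluster chrX:101301967-101302072 named miR-124-3p in both *Mov10* Deletion replicates (5.0 and 6.0), not in WT, and lay on no AGO2 cluster. Listed in 1 library each were miR-124-3p at chrX:101309786-101309849 (3.05, WT), miR-433-3p at chrX:101318201-101318257 (3.0, WT) and miR-665-3p at chrX:101309371-101309466 (3.0, replicate 2).

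**Figure D3:**
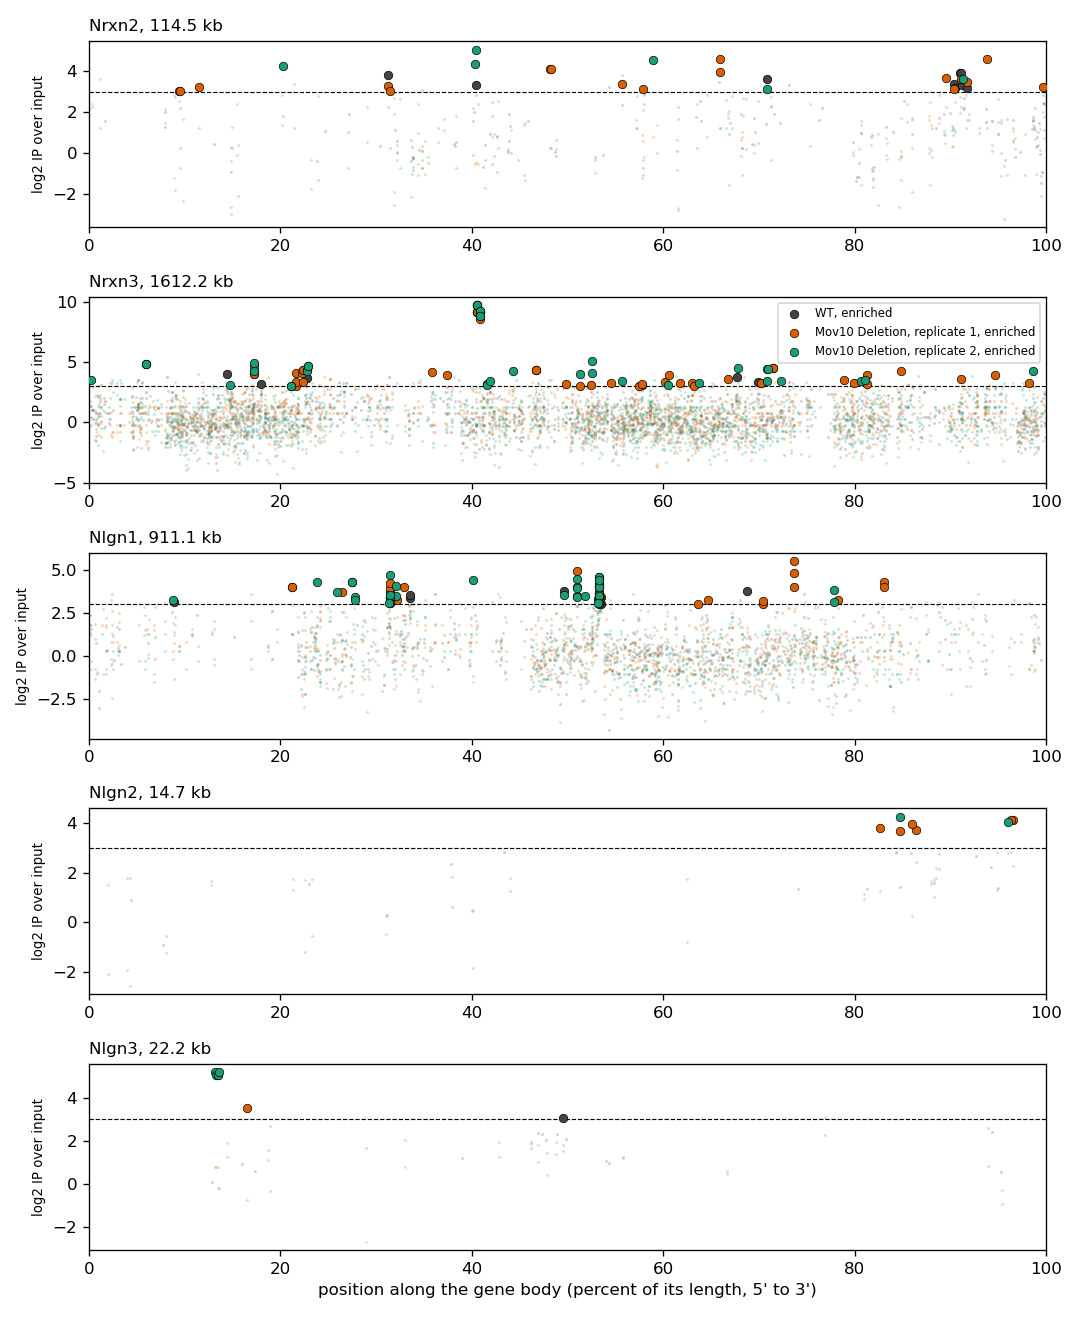
Log2 IP over input of every AGO2 cluster against its position along each gene body in percent of its length, 5′ to 3′, with small dots for clusters that were not enriched, large outlined dots for enriched clusters and colours for the libraries. Enriched clusters of *Nlgn1* stack near 31.5, 51.0 and 53.3% of the gene, those of *Nlgn2* lie toward the 3′ end, and the narrow *Nrxn3* clusters stand alone at 40.6 and 40.9%.

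AGO2 is best known at the 3′ ends of transcripts, and the last 5000 nt of each gene were therefore examined separately. Over protein-coding genes, 40.0% of enriched clusters in WT overlapped the last 5000 nt, and the *Mov10* Deletion replicates had 25.1% and 24.9%. Over the 5 genes there were 0 of 37 in WT, which allows a share of up to 8.11%, 7 of 106 (6.60%, 2.7 to 13.1) in replicate 1, and 2 of 80 (2.50%, 0.304 to 8.74) in replicate 2. Of all clusters, enriched or not, 1.76%, 1.21% and 1.21% lay there in the 5 genes pooled, beside 11.9%, 10.4% and 10.4% over protein-coding genes. The pooled share is set mainly by the 2 longest genes, which hold most of the clusters. By gene it was 15.0%, 11.2% and 11.2% in *Nrxn2* and 13.3%, 9.09% and 9.09% in *Nlgn3*, near that of protein-coding genes. The share in genes over 100 kb was not computed for this window. In *Mov10* Deletion replicate 1 the enriched share was above the share of all clusters in the same genes. In replicate 2 the interval of the enriched share includes the share of all clusters. *Nlgn2* held 6 of 7 and 2 of 2 of these enriched clusters. In the 2 longest genes few clusters of any kind lay at the end, with 7, 5 and 5 in *Nrxn3* and 1, 0 and 0 in *Nlgn1*.

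*Nlgn2* had the highest share of its clusters at the end. Of its clusters 53.3%, 51.9% and 51.9% lay in the last 5000 nt, which is a large part of this short gene, and so did all of its enriched clusters (6 and 2 in the *Mov10* Deletion libraries) and all of its miRNA target clusters. The cluster chr11:69825339-69825383, 2.216 kb before the end, was enriched in both *Mov10* Deletion libraries with a log2 of 3.69 (37 IP reads over 5) and 4.25 (8 over 1), while the overlapping WT cluster had 1.42. The miRNA named at this place was miR-124-3p, with a score of 27.7 in WT and at most 7.86 and 16.6 in the *Mov10* Deletion libraries. WT had the highest listed target score there and the lowest IP over input. In replicate 1 the place was split into adjoining target clusters of 7.63 and 7.86, so those scores are not like for like. A second miR-124-3p locus at chr11:69825888-69825940 had scores of 13.6, 5.72 and 3.23 and was on no enriched cluster, with log2 values of 1.34, 1.16 and 0.93.

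A miR-125b-5p target cluster of *Nlgn2*, chr11:69823859-69823882, was listed in WT with a score of 4.18 and was 24 nt wide. It is shown because it was the 1 match among 16 pairs searched, so the share given below is no test of it. Counted back from the gene's end it spans nucleotides 737 to 760. In the canonical GENCODE vM39 transcript of *Nlgn2* (GRCm39), counted back from the transcript's end, the match to the miR-125b-5p seed lies at nucleotides 743 to 749. It is shown in capitals within its neighbouring bases.
Nlgn2, nucleotides 743 to 749 from the end: tctctccccatCTCAGGGtcagaccagcc
The letters searched were CTCAGGG, on the transcript strand alone. At the same distance from the end, 36 of 20535 canonical coding transcripts long enough (0.175%) hold them in a window of that length. The counting assumes that the gene in mm10 and the transcript in GRCm39 end at the same base, which was not tested.

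For want of a sequence, the miR-124-3p target clusters in the last 5000 nt were not searched in this way. For the other miRNAs named there, 16 pairs of a miRNA and a target cluster were searched. A match to nucleotides 2 to 8 lay inside the cluster in 1 of them, miR-125b-5p in *Nlgn2*. None was found for miR-92a-3p (GTGCAAT) or miR-16-5p (TGCTGCT) at the end of *Nrxn2*, where a target cluster 250 nt before the end in WT and 249 nt in *Mov10* Deletion replicate 1 named miR-92a-3p with scores of 20.8 and 19.2 and miR-16-5p with 6.81 and 3.0. WT also named miR-92b-3p there with 3.86, and replicate 2 listed no miRNA. The enriched cluster chr19:6532826-6532930 of replicate 1 at this place had a log2 of 3.24, and the highest value in the last 5000 nt was 2.84 in WT and 2.20 in replicate 2. The absence of a match says only that these letters are not in the window searched.

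At the end of *Nlgn3*, the locus chrX:101319531-101319682 was listed in all 3 libraries with different miRNAs. It named miR-124-3p in WT (5.14) and replicate 1 (5.35), let-7c-5p in replicate 1 (4.64) and miR-9-5p in replicate 2 (5.0), and no AGO2 cluster overlapped it. At the end of *Nrxn3* no target cluster was listed in WT, and the *Mov10* Deletion libraries listed 3 and 2 assignments. Those of replicate 1 were miR-135a-5p at 7.0, miR-127-3p at 6.11 and miR-370-3p at 5.0, and those of replicate 2 were miR-673-5p at 6.0 and miR-125b-5p at 5.0. Of these, miR-127-3p, miR-370-3p and miR-125b-5p were named at 1 place, chr12:90332119-90332218.

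The last comparison was of the miRNAs named. The 5 genes had 107 miRNA assignments in WT, with 182 and 74 in the *Mov10* Deletion replicates, while all genes together had 21302, 29670 and 13062. The most frequent miRNA was miR-124-3p, with 51 (47.7%, 37.9 to 57.5), 62 (34.1%, 27.2 to 41.4) and 27 (36.5%, 25.6 to 48.5). Its share of all assignments in genes was 42.6%, 35.1% and 37.2%, inside those intervals. It was the most frequent miRNA in each library in *Nrxn3* (28, 36 and 13) and *Nlgn1* (15, 17 and 9), and it was named 3, 4 and 2 times in *Nrxn2*, 3, 3 and 2 times in *Nlgn2* and 2, 2 and 1 times in *Nlgn3*.

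A group of mouse miRNAs with many members, miR-466, miR-467, miR-669 and miR-297, was named 18 times in WT (16.8%, 10.3 to 25.3), 36 times in replicate 1 (19.8%, 14.3 to 26.3) and 14 times in replicate 2 (18.9%, 10.7 to 29.7). In all genes its share was 6.80%, 7.22% and 7.31%, and in genes over 100 kb it was 11.4%, 10.7% and 11.2%. The share of all genes lay below the interval of the 5 genes in each library, whereas the share of long genes lay inside it in WT and replicate 2 and below it in replicate 1. Assignments that share a cluster are not independent, so the intervals are a lower limit of the error. Most of these assignments were in *Nrxn3* (13, 20 and 12) and *Nlgn1* (5, 13 and 2), the longest of the genes. In *Nrxn3* miR-466i-5p was named 4, 12 and 10 times and miR-466f-3p 9, 8 and 2 times, and in *Nlgn1* they were named 3, 5 and 2 and 2, 7 and 0 times. No such miRNA was named in *Nlgn2* or *Nlgn3*.

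Of the other seed groups, let-7 and miR-98 were named 10, 20 and 8 times and miR-9-5p 8, 11 and 3 times. At chr12:89655010-89655118 in *Nrxn3*, all 3 libraries named a let-7 miRNA of the same seed, and the cluster there was enriched in WT (3.15) and replicate 1 (3.2), with 3.06 in replicate 2, which missed the p threshold. Of the assignments in the 5 genes, 15 of 107 lay on enriched clusters in WT (14.0%, beside 19.8% in all genes and 15.1% in genes over 100 kb). In replicate 1 there were 19 of 182 (10.4%, beside 14.6% and 10.1%), and in replicate 2 there were 9 of 74 (12.2%, beside 13.8% and 9.82%). The shares of the 5 genes were thus near those of long genes.

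**Figure D4:**
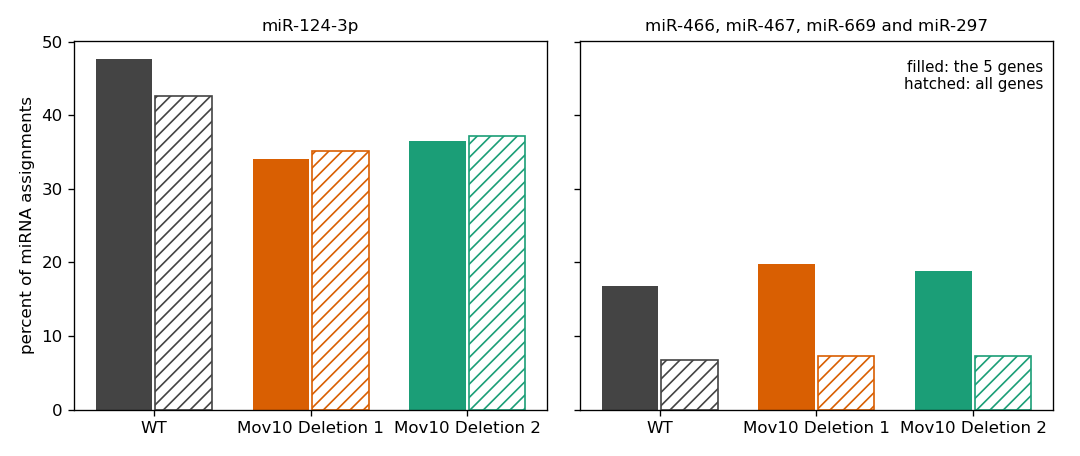
Percent of miRNA assignments that name miR-124-3p (left) or a miR-466, miR-467, miR-669 or miR-297 miRNA (right) in the 5 genes (filled bars) and in all genes (hatched bars) of each library. The bars of miR-124-3p are close to each other in each library (47.7 against 42.6% in WT), whereas those on the right differ (16.8 against 6.80% in WT).

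Of the target loci of the 5 genes, 80.6% were listed in a single library and 6.34% in all 3, near the 80.3% and 6.93% of all genes and the 84.1% and 5.29% of genes over 100 kb. After overlapping target clusters of all libraries were joined, *Nrxn3* had 160 loci of which 11 were listed in all 3 libraries and 128 in 1, *Nlgn1* had 83 of which 3 and 71, *Nrxn2* had 15 of which 0 and 11, *Nlgn2* had 5 of which 2 and 3, and *Nlgn3* had 5 of which 1 and 3. At several of the 17 loci listed in all 3 libraries the score differed between the *Mov10* Deletion replicates as well as between them and WT. An example is the miR-124-3p locus chr12:89849547-89849692 of *Nrxn3*, with 6.92 in WT, 21.5 in replicate 1 and 4.96 in replicate 2, which lay on an enriched cluster in WT (3.40) only. The locus chr12:89591891-89591971 named miR-466f-3p in each library with 17.6, 14.7 and 8.86 and lay on no enriched cluster. The spread between the replicates was thus as wide as the distance to WT at the first of these loci.

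**Figure D5:**
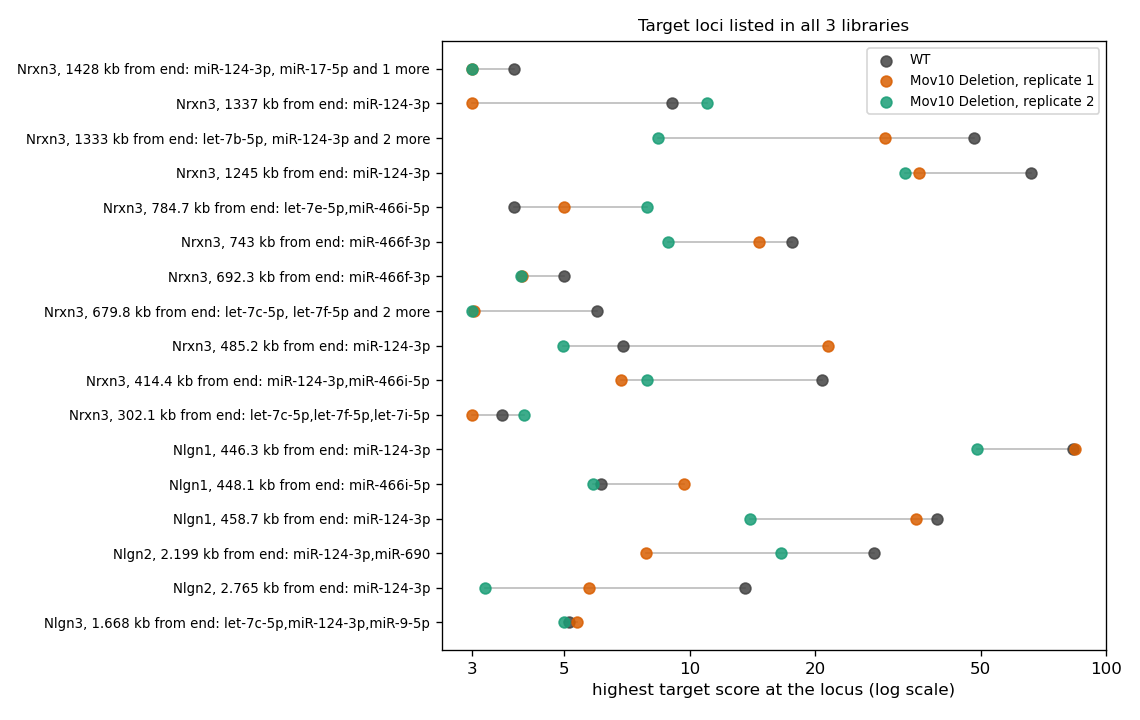
Highest target score (log axis) in each library at the 17 loci of the 5 genes listed in all 3 libraries, named by gene, distance from the gene's end and miRNAs. The *Nlgn1* locus of miR-124-3p has the highest score in each library (83.3, 84.3 and 48.9), and the libraries change order from locus to locus.

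For comparison, 68 synaptic genes were counted in the same way. They were ligands, receptors, scaffolds and regulators of neurexins or neuroligins, and 26 other synaptic adhesion genes that are not partners by this list. Of the 68, 32 had an enriched cluster in WT, while the *Mov10* Deletion replicates had 55 and 47. In both of those libraries 45 (66.2%) were enriched, beside 24.1% of all genes and 58.1% of genes over 100 kb. By role, 9 of 18 neurexin ligands and receptors, 4 of 6 presynaptic scaffolds, 14 of 18 postsynaptic scaffolds and neuroligin regulators and 18 of 26 other synaptic adhesion genes were enriched in both. In all 3 libraries the numbers were 5, 3, 10 and 12. In every library together, 15.6% of all genes with a cluster were enriched.

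Among the ligands and receptors, *Igsf21*, a neurexin-binding immunoglobulin protein, had highest log2 values of 4.76 in WT, 4.97 in replicate 1 and 6.54 in replicate 2. *Adgrl3*, a latrophilin, had 4.08, 4.97 and 4.95, and *Lrrtm3*, a leucine-rich repeat ligand of neurexins, had 4.04, 4.16 and 4.42. Of the presynaptic scaffolds, *Apba1* had 5.91, 4.77 and 4.95, *Cask* had 3.31, 4.89 and 3.95, and *Lin7a* had 3.08, 3.26 and 3.13. Of the postsynaptic scaffolds, *Dlgap2* had 5.66, 5.89 and 5.90, *Shank2* had 5.08, 6.16 and 5.34, and *Dlgap1* had 4.80, 4.38 and 4.71. Of the other adhesion genes, *Cadm2* had 6.71, 4.99 and 4.84, *Lrrc4b* had 5.34, 5.32 and 4.95, and *Tenm2* had 5.11, 4.97 and 6.34.

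The genes of this list most like each member were found by the distance between their highest log2 values over the 3 libraries, with −log10 p at or above 3. *Nlgn1* was nearest to *Tenm4* (distance 0.278), which had 4.56, 5.26 and 4.58 beside 4.57, 5.50 and 4.71. *Nrxn2* was nearest to *Shank1* (0.295), *Nlgn2* to *Nxph1* (0.389) and *Nlgn3* to *Dlgap3* (0.649). *Nrxn3* had no close neighbour, its nearest being *Shank3* at 5.22, and its values for this measure in both *Mov10* Deletion libraries come from the narrow clusters. The measure covers 3 libraries and 43 list genes with a value in each, and is a description alone.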

How the data were processed

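AGO2 chimeric eCLIP libraries of P0 mouse brain, 1 WT and 2 *Mov10* Deletion, were analysed from the deposited cluster lists. The size-matched inputs entered only through them. Per the labels and methods, the authors handled molecular identifiers with UMI-tools 1.1.1, trimmed with cutadapt 3.2, set aside reads on repeats and rRNA, mapped with STAR 2.7.7a to mm10, discarded PCR duplicates and then ran CLIPper to call clusters. For each AGO2 cluster the authors deposited a −log10 p-value, which stops at 400, and a log2 ratio of IP to input. Chimeric reads were matched to miRNAs with Bowtie 1.2.3, and their clusters were deposited with a miRNA and a score of at least 3 whose scale is not given in the sources used here. Scores are compared only as listed. Whether the *Mov10* Deletion libraries were called together is not given in the sources used here.

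Gene bodies came from RefSeq and its GRCm38.p6 assembly, which is mm10. Of 49997 genes placed, 27025 had a strand from RefSeq promoters and 18249 from GENCODE vM39 by symbol, and in 22103 of 22231 genes with both the strands were equal. An overlap of 1 nt on the same strand counted. Coordinates count from 1 and none were converted between builds.

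Total depth is unknown. IP and input reads of a cluster were inferred as the smallest whole numbers that give the deposited ratio, with 1 read over 1 worth a fold of 0.845, 1.74 and 2.39 in WT and *Mov10* Deletion replicates 1 and 2, and the deposited −log10 p within 0.001 or, where larger, 0.001 of its value. They fitted 7510 of 7510, 31801 of 31801 and 19024 of 19029 enriched clusters below the limit. An inferred input of 1 can stand for 0 or 1 reads. The inference and the overlaps were tested on simulated data. Intervals are exact Clopper-Pearson 95% intervals, and the limit given beside a count of 0 is instead 3 counts of the total. Python 3.11.15, pandas 2.3.3 and scipy 1.17.1 were used.

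The members and gene lists were chosen with earlier results of these data known. Clusters were named from those enriched in WT or in both *Mov10* Deletion libraries, up to 3 per gene and library. Target clusters were named from all where a gene had at most 6 per library, otherwise from the 6 of highest score. Not each of these is printed. From the list, up to 3 genes per role enriched in all libraries were named by WT log2. Regions, loci listed in all libraries, clusters enriched in a single *Mov10* Deletion library, the start sites, the gene ends and the miR-466 group were added after their values were seen. Alternatives to each threshold are in the closing section.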

Additional observations from a re-analysis of the deposited data

Results flagged for a closer look

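Clusters on the strand opposite to a gene entered no comparison. *Nrxn2* had 4 such clusters in the WT library, above the limit of 3 that a count of 0 allows, and 1 in each *Mov10* Deletion library. They lie between chr19:6530905 and chr19:6531829 near the 3′ end of the gene, have log2 values of 0.76 to 1.08 in WT and of 2.38 and 1.25 in *Mov10* Deletion replicates 1 and 2, and none was enriched. No gene on that strand was placed there.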

How the results depend on the processing

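Of 51 alternative values for 11 results, 31 stayed within 1.5 times the reported count and 20 did not. Some of the 31 could not have changed. No other gene on the same strand overlapped a member, so leaving out such clusters removed none. Every enriched WT cluster already had at least 16 inferred IP reads. The members enriched in both libraries could not leave 5 at a lower log2 or without 1 replicate. A log2 of at least 2 in place of 3 gave 69, 193 and 141 enriched clusters in the 5 genes in WT and *Mov10* Deletion replicates 1 and 2 (37, 106 and 80 reported), and 5, 13 and 6 in the last 5000 nt (0, 7 and 2 reported). A −log10 p of at least 5 gave 58 and 48 enriched clusters in replicates 1 and 2, and 1 in the last 5000 nt in replicate 2. A last window of 1000 nt gave 3 and 1 enriched clusters in replicates 1 and 2, and one of 10000 nt gave 2 in WT. A target score of at least 5 gave 42, 64 and 20 target clusters (95, 176 and 71 reported). Other alternatives were chosen after seeing the data. Among these, counting adjoining enriched clusters as 1 region gave 67 and 49 in replicates 1 and 2, a minimum of 16 inferred IP reads gave 60 and 32, and requiring the same cluster in both *Mov10* Deletion libraries gave 3 genes in place of 5. By construction all these alternatives keep more or fewer clusters. With a single *Mov10* Deletion library the members enriched were 5 without either replicate, and the list genes ranged from 47 to 55 (45 in both). Neither count could fall there, since a gene enriched in both libraries is enriched in each, and so these alternatives are no check. No paired analysis was possible because WT and *Mov10* Deletion share only replicate number 1. WT is 1 brain, total depth is unknown, and clusters just under a threshold, such as the *Nrxn2* cluster at 2.97, differ little from those just over it.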
